A study of Mus musculus with 8 samples.

Results

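The 35 genes described here code for the machinery that folds, checks, degrades and ships secreted proteins in the endoplasmic reticulum (ER). They were taken by symbol from a fixed list, and all 35 were found among the 18501 genes of the expression table. All 35 were also among the 14359 genes that passed the filter on low counts and were tested. The libraries came from chondrocytes of the rib cartilage of 10-day-old CD1 mice, with 4 groups of 2 libraries each. CG mutants carry a mutated seed in the 3p arm of the microRNA gene Mir140, and CT mutants a C>T base change there. The labels describe either change as a means to overexpress the 5p arm of miR-140, and wild types were taken separately for each line. The cells of all 8 libraries had been freed with collagenase overnight, filtered and plated before RNA was taken with TRIzol. The libraries therefore hold isolated cells on plastic and not intact cartilage. Neither the arms of miR-140 nor any protein was measured in the tables used here.

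Chondrocytes are secretory cells that fill their surroundings with collagen and proteoglycan, and collagen chains must be hydroxylated, disulfide-bonded and trimerised in the ER before export. Proteins enter through the Sec61 channel, fold with the help of BiP (Hspa5), the lectin chaperones and the disulfide isomerases, and leave in COPII vesicles. Chains that fail to fold are drawn back out and destroyed, a route called ER associated degradation. When unfolded protein accumulates, the sensors IRE1 (Ern1), ATF6 and PERK switch on a programme, the unfolded protein response, that raises many of these same genes. Chondrocytes also use a cartilage transducer of this kind, Creb3l2 (BBF2H7), to raise parts of the export coat.

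Total counts ran from 26536868 to 28678641 per library. The lines parted on the first principal component (64.5% of the variance), and CG mutant replicate 1 stood alone on the second (12.2%). Levels are given as CPM, counts per 1000000 counts after TMM scaling of the library sizes. Marker genes of chondrocytes, 12 of 12 in the table, summed to between 31830.5 and 62747 CPM, and most of this was Col2a1. All 12 were detected in every library, down to Matn1 at 8.82 to 68.9 CPM and Matn3 at 13.1 to 42.7. Col2a1 ran from 24140 to 41094 CPM in CG and from 30879 to 50163 in CT, and Acan and Sox9 from 2765 to 6966 and from 590.3 to 1002 CPM over all libraries, both highest in CG mutant replicate 1. Wwp2, the gene whose intron hosts Mir140, ran from 489.7 to 1043 CPM in CG and from 206 to 321 in CT and is no measure of either arm. Whether a group's libraries are separate animals is not stated, so p-values rest only on the spread among these 8 libraries, part of which may be technical. Counts of the Y-linked gene Ddx3y were 2 and 2511 in CG wild types, 2231 and 2360 in CG mutants, 3669 and 10 in CT wild types, with 3512 and 30 in CT mutants. In CG wild types, CT wild types and CT mutants the libraries thus differed in sex. Those of each such group did not come from the same animal or pool. In bulk RNA of this kind, fewer cells of a type and less RNA per cell cannot be told apart.

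Between genes, levels can be set side by side only per transcript length, so the authors' deposited FPKM values were used for their order. BiP stood first, with a mean of 692 FPKM over 8 libraries and a range of 547 to 906, and held rank 80 among all genes. Serpinh1 (HSP47), the chaperone that binds the procollagen triple helix, followed at 601 FPKM. P4hb, which is both a protein disulfide isomerase and the beta subunit of the collagen prolyl 4-hydroxylase, came next at 339 FPKM. The calcium-binding lectin chaperone Calr was at 301 FPKM, and Herpud1, which organises the degradation complex in the ER membrane, was at 253 FPKM. At the bottom, the degradation genes Edem1 and Derl2 were at 12.1 and 11.4 FPKM and Derl3 at 1.64 FPKM. The levels of the 35 genes thus ran from rank 80 to rank 10436 of the table, and BiP, Serpinh1 and P4hb led them. Together the 35 genes took 1.12% and 1.27% of all counts in CG wild types and 1.23% and 1.36% in CG mutants. They took 0.996% and 0.921% in CT wild types, and in CT mutants 0.972% and 0.941%, so each of the 4 CT libraries gave them a smaller share than each of the 4 CG libraries.

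**Figure D1:**
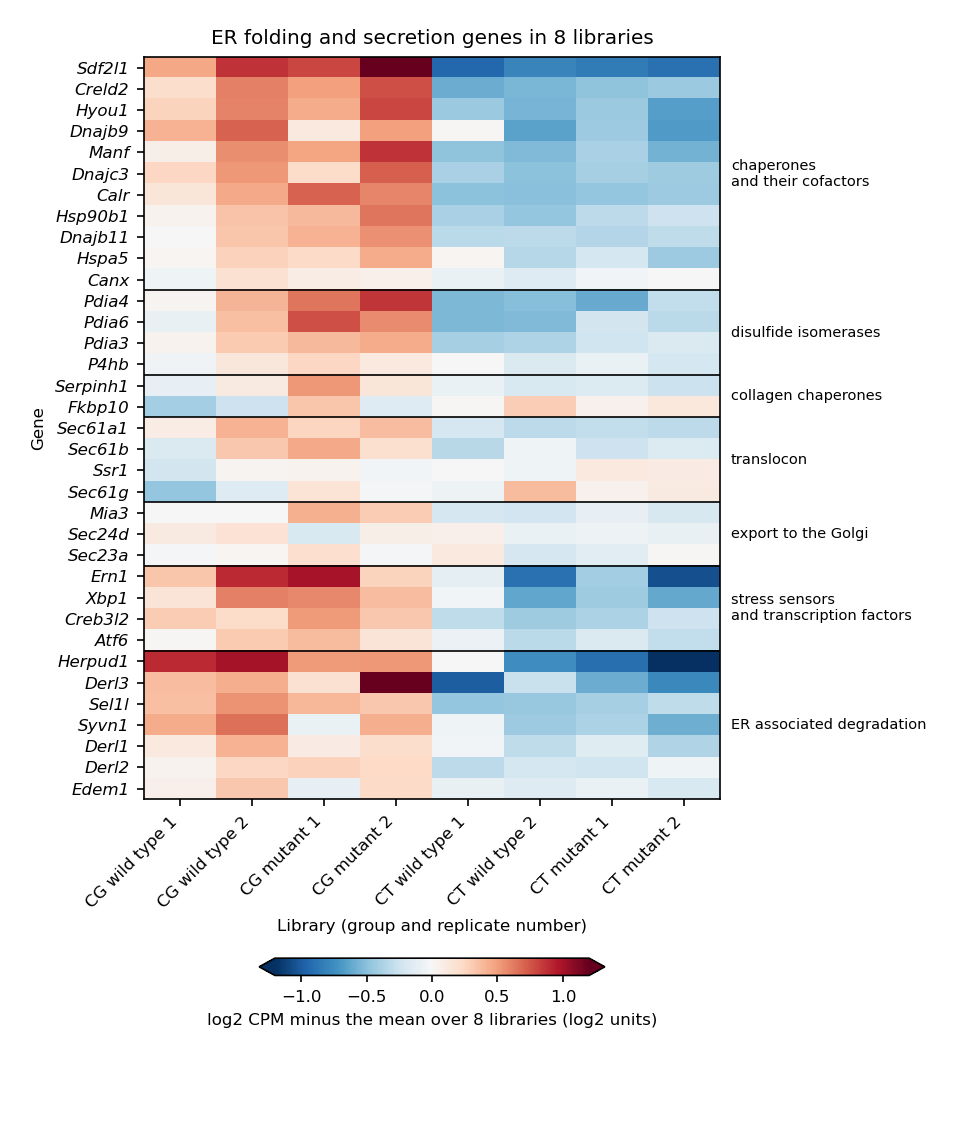
Level of each of the 35 genes (rows, grouped by role) in each of the 8 libraries (columns), as log2 CPM minus the gene's mean over the libraries, in log2 units. The 4 CG columns on the left are mostly red (above the mean) and the 4 CT columns mostly blue, and 23 of 35 rows have all 4 CT libraries below all 4 CG libraries.

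Many genes of the unfolded protein response carry an ER stress response element in their promoter, and the elements are shown here because the genes that hold them are among those whose levels are compared below. The element, ERSE, reads CCAAT, 9 bases of any kind, and CCACG, and the related ERSE-II reads ATTGG, 1 base, and CCACG. Both strands of the RefSeq promoter windows (GRCm38.p6, 250 bases before to 50 bases after each transcript start) were searched, for their letters only since the submitters name another build, and 29 of the 35 genes had a window under their gene ID. An exact ERSE was found for 9 of these 29 genes, or 31.0%. It was found for 37 of 27025 genes with a window, or 0.137%, and for 21 of the 11337 tested genes among them, or 0.185%. Hsp90b1 held 2 matches. In each line below the letters of the element are in capitals, with 5 flanking bases on each side, and the coordinates are those of the element itself.
Hspa5, chr2:34772025-34772043, plus strand: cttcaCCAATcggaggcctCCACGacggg
Hsp90b1, chr10:86705533-86705551, plus strand: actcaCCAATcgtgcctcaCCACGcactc
Hsp90b1, chr10:86705638-86705656, minus strand: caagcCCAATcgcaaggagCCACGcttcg
Calr, chr8:84847075-84847093, plus strand: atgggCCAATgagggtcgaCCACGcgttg
Canx, chr11:50325800-50325818, minus strand: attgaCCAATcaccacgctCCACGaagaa
Creld2, chr15:88819520-88819538, minus strand: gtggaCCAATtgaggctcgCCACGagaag
Dnajc3, chr14:118937827-118937845, plus strand: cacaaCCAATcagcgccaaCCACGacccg
Pdia6, chr12:17266491-17266509, plus strand: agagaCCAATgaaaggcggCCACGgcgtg
Syvn1, chr19:6046532-6046550, plus strand: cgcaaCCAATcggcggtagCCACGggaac
Derl3, chr10:75893242-75893260, minus strand: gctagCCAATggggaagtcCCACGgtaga

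The matches lay within 212 bases of the start, that of Hspa5 between 65 and 47 bases before it and that of Syvn1 between 44 and 26 bases before it. ERSE-II was found for Herpud1 and Dnajb11, 2 of the 29 genes, against 12 genes in all, or 0.0444%, and 9 tested genes, or 0.0794%. It is shown because Herpud1, with one of the widest differences between the lines, holds this form and not the longer one.
Herpud1, chr8:94386377-94386387, plus strand: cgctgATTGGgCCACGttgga
Dnajb11, chr16:22857852-22857862, plus strand: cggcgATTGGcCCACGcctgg

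Sequence around the element is given for 2 genes, for the 250 bases before the start on the strand of the gene. The ERSE of Hspa5 (chr2:34771840-34772089, plus strand) and the ERSE-II of Herpud1 (chr8:94386179-94386428, plus strand) are in capitals.
Hspa5: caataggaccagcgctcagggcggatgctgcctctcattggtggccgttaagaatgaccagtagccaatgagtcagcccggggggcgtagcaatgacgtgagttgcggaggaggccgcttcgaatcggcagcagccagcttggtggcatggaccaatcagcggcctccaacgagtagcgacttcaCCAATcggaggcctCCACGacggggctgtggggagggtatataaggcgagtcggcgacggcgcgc
Herpud1: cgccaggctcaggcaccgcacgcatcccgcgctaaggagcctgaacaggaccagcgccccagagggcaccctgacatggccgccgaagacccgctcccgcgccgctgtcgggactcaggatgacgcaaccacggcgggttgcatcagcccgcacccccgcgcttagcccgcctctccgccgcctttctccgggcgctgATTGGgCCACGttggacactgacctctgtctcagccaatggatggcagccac

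Shorter letters are less particular. The core TGACGTG of a second element, the UPRE, was in the windows of Hspa5, Mia3, Sec23a and Sec24d, 4 of 29 genes or 13.8%. It was in those of 2.22% of all genes and 3.14% of tested genes. ACGTG alone, which TGACGTG contains, was in 13 of 29 windows (44.8%), against 21.8% of all and 28.5% of tested genes. CCACG alone, which both ERSE forms contain, was in 23 of 29 (79.3%), against 35.5% and 50.7%. A match describes letters in a window and shows neither binding nor a cause.

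More of the 35 genes were called between the lines than between mutants and their wild types. Between the wild types, 21 of 35 genes were lower in CT and 0 were higher by the edgeR test, where 16.8% of all tested genes were lower and 17.0% higher. Between the mutants, 26 were lower and 0 higher, against 18.2% and 17.9% of all genes. At an unadjusted p under 0.05, 24 were lower and 2 higher between wild types (22.3% and 22.9% of all genes), and 28 were lower and 0 higher between mutants (23.8% and 23.3%). DESeq2 called 20 lower and 2 higher in the wild types, against 14.5% and 15.3% of all genes, and 28 lower and 0 higher in the mutants, against 16.1% and 16.2%. On FPKM values, where the median of all genes itself shifted by 0.09 and 0.14, limma called 17 lower and 2 higher between wild types and 18 lower and 1 higher between mutants. It split all genes 1567 lower (10.9%) to 3248 higher (22.6%) and 1504 (10.5%) to 4040 (28.1%), against 2407 to 2436 and 2620 to 2564 in edgeR. The median log2 fold change (CT minus CG) of the 35 genes was -0.56 between wild types and -0.68 between mutants, where the medians of all tested genes were 0.00 and -0.01. These 2 comparisons share no library, but any batch that ran along with the line enters both. The mutants also differ in their alteration, which cannot be told apart from line and batch. In both comparisons 20 genes were lower. Those 20 are 95.2% of the wild-type list and 76.9% of the mutant list, against 77.1% and 70.8% for all genes, of which 12.9% were lower in both. The 35 genes had been proposed with results of these libraries known.

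In 23 of 35 genes all 4 CT libraries lay below all 4 CG libraries, a pattern seen in 23.1% of all tested genes. The other 12 were Hspa5, Canx, P4hb, Serpinh1, Fkbp10, Sec61b, Sec61g, Ssr1, Sec23a, Sec24d, Edem1 and Syvn1. In 0 of 35 did all 4 lie above, against 23.7% of all genes. Without CG mutant replicate 1 the first count was 26 of 35, against 27.0% of all genes, and the 3 added genes were Syvn1, Edem1 and Sec24d. The labels name no batch, and a batch that ran along with the line cannot be told apart from it. The plot of log2 fold changes with their standard errors shows both comparisons gene by gene.

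**Figure D2:**
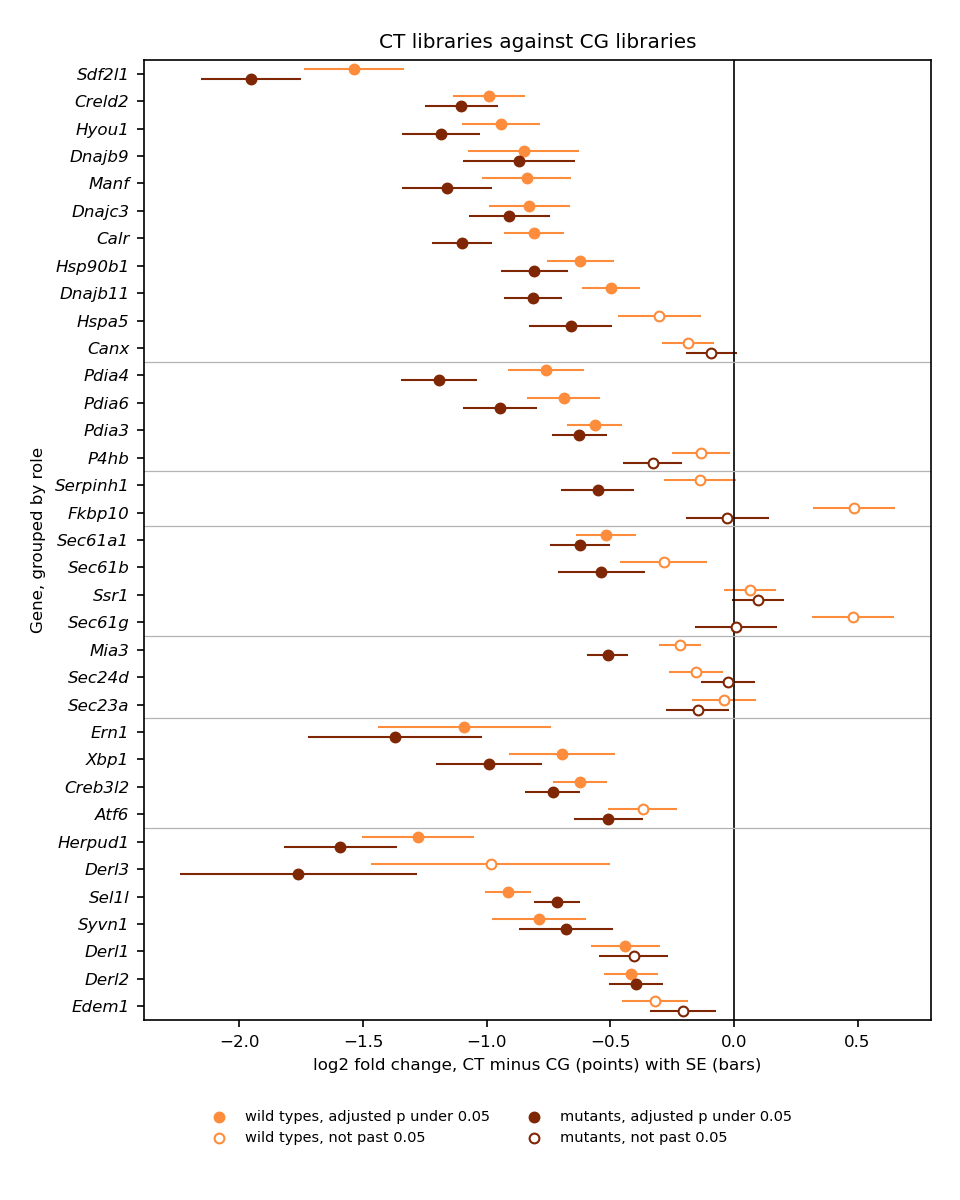
Log2 fold change of each gene, CT minus CG, between wild types (light) and between mutants (dark), with the standard error as bars; filled points passed the edgeR test at an adjusted p under 0.05 and open points did not. Points left of 0 are lower in CT: 32 of 35 genes between wild types and 33 of 35 between mutants.

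Chaperones and their cofactors, the largest role, had the most calls, 9 of 11 between wild types and 10 of 11 between mutants, all lower in CT. Of all tested genes 16.8% and 18.2% were lower, and these shares also stand beside the counts of the roles below. Sdf2l1, a partner of the ER J-proteins, stood at 29.0 and 38.2 CPM in CG wild types and 36.6 and 52.9 in CG mutants. In CT it was at 11.0 and 12.2 CPM in wild types and 11.8 and 11.3 in mutants. The highest CT library was less than the lowest CG library by more than the whole spread among CT libraries. Its log2 fold change was -1.54 ± 0.20 (SE) between wild types and -1.95 ± 0.20 between mutants, with edgeR adjusted p of 0.00145 and 0.000522. That is 2.90-fold and 3.87-fold lower.

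Creld2, a disulfide isomerase-like protein induced by misfolded matrix proteins in cartilage, was at 56.4 and 74.3 CPM in CG wild types and 68.6 and 83.3 in CG mutants. The CT libraries stood together, at 32.4 and 33.4 CPM in wild types and 34.9 and 35.9 in mutants, below every CG library. The log2 fold changes were -0.99 ± 0.15 and -1.10 ± 0.15, with edgeR adjusted p of 0.00236 and 0.00126.

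Hyou1 (GRP170), the exchange factor that recharges BiP, was at 397 and 496 CPM in CG wild types and 449 and 573 in CG mutants. CT wild types were at 242 and 223 CPM and CT mutants at 241 and 208. No CT library reached the lowest CG library. Differences of -0.94 ± 0.16 and -1.18 ± 0.16 (log2) passed the edgeR test with adjusted p of 0.00392 and 0.00129.

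Calr, the soluble lectin chaperone, was at 593 and 736 CPM in CG wild types and 873 and 806 in CG mutants. It was at 382 and 377 CPM in CT wild types, and CT mutants were at 388 and 396, a narrow band well under the CG libraries. Log2 fold changes were -0.81 ± 0.12 and -1.10 ± 0.12, with edgeR adjusted p of 0.00239 and 0.000638. Its membrane-bound relative Canx did not pass in either comparison, at -0.19 ± 0.10 and -0.09 ± 0.10.

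Dnajc3 (p58IPK), a J-protein that hands clients to BiP, was at 145 and 175 CPM in CG wild types and 143 and 202 in CG mutants. Levels of 93.7 and 87.0 CPM in CT wild types and, in CT mutants, 92.8 and 91.0 CPM left no overlap between the lines. Dnajb11 (ERdj3), another J-protein, was at 87.8 and 109.7 CPM in the wild types and 117 and 128 CPM in the mutants of CG, and at 69.6 and 70.4 CPM and 68.3 and 70.8 CPM in those of CT. Here the CT libraries lay close together while the CG libraries spread over a wide range above them. Manf, a small ER stress factor that binds BiP, was at 132 and 185 CPM in the wild types and 174 and 229.9 CPM in the mutants of CG, and at 89.8 and 87.2 CPM and 96.1 and 85.0 CPM in those of CT, again without overlap. Between mutants the log2 fold changes of Dnajc3, Dnajb11 and Manf were -0.91 ± 0.16, -0.81 ± 0.12 and -1.16 ± 0.18.

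Hspa5 itself, the most abundant gene of the list per length, was less clearly separated. Its levels were 1700.5 and 2038 CPM in CG wild types, 1963 and 2278 in CG mutants, 1704 and 1327 in CT wild types, and CT mutants were at 1445 and 1239. One CT wild type lay just above the lower CG wild type, so the wild types overlapped, while the mutants did not. The wild-type log2 fold change of -0.30 ± 0.17 did not pass (edgeR adjusted p = 0.199), and that of -0.66 ± 0.17 between mutants did (edgeR adjusted p = 0.0184). Hsp90b1 (GRP94) and Dnajb9 (ERdj4) passed in both comparisons, at -0.62 and -0.85 between wild types and -0.81 and -0.87 between mutants.

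**Figure D3:**
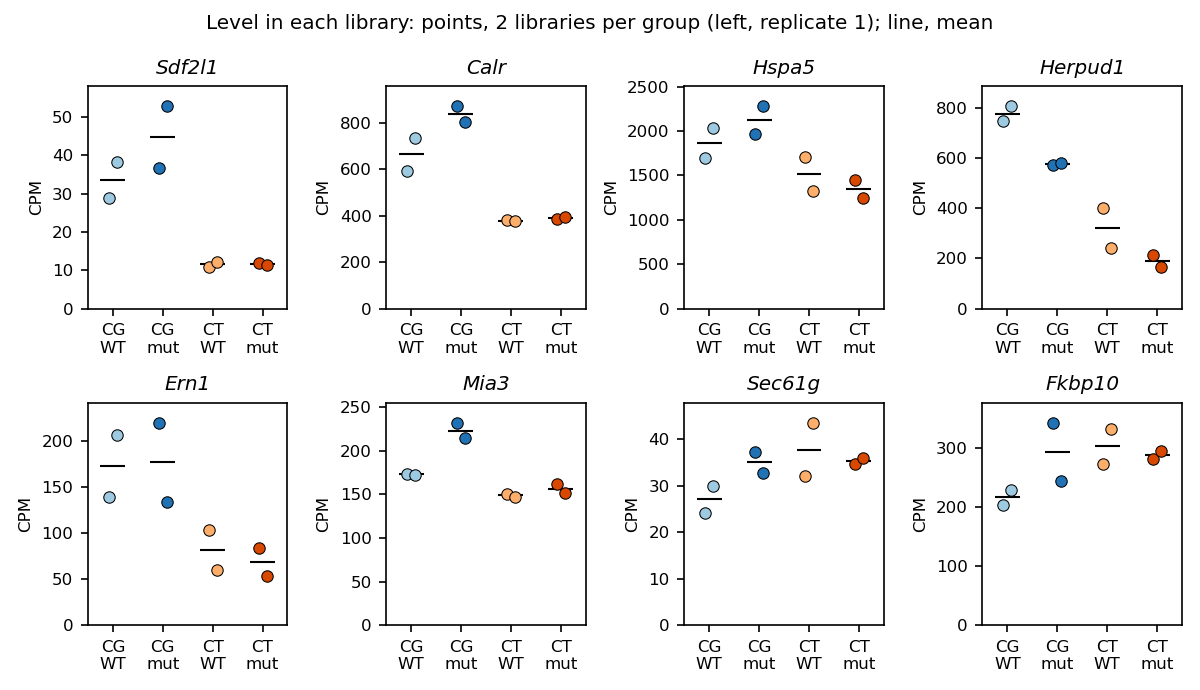
Level of 8 genes in each library, in CPM on axes that start at 0, by group: points are the 2 libraries of a group (replicate 1 on the left) and the line is their mean. Sdf2l1, Calr, Herpud1, Ern1 and Mia3 have every CT point below every CG point, whereas Hspa5, Sec61g and Fkbp10 overlap between the lines; Ern1, Sec61g and Fkbp10 were picked for this plot after their values were seen.

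Of the 4 disulfide isomerases, 3 were lower in CT in both comparisons. Pdia4 (ERp72) was at 142 and 184 CPM in CG wild types, 216 and 249.7 in CG mutants, 95.1 and 96.9 in CT wild types, and CT mutants were at 91.1 and 113. Pdia3 (ERp57), which works with the lectin chaperones, was at 494 and 597 CPM in the wild types and 632 and 655 CPM in the mutants of CG, and at 365 and 374 CPM and 408 and 427 CPM in those of CT. Pdia6 (P5) was at 256 and 349 CPM in the wild types and 464 and 404 CPM in the mutants of CG, and at 187 and 188 CPM and 233 and 218 CPM in those of CT. For each of them the CT libraries lay below all CG libraries, and the CG mutants lay above the CG wild types. Between wild types the log2 fold changes of Pdia4, Pdia3 and Pdia6 were -0.76 ± 0.15, -0.56 ± 0.11 and -0.69 ± 0.15, with edgeR adjusted p of 0.008, 0.00743 and 0.0104. Between mutants they were -1.19 ± 0.15, -0.62 ± 0.11 and -0.94 ± 0.15. P4hb, the most abundant of the 4, did not pass, at -0.13 ± 0.12 and -0.33 ± 0.12. It was at 807 and 909 CPM in the wild types and 987 and 898 CPM in the mutants of CG, and at 829 and 737 CPM and 783 and 718 CPM in those of CT, so the lines overlapped.

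Neither of the 2 collagen chaperones passed between wild types. Serpinh1 was at 1206 and 1390.4 CPM in CG wild types and 1221 and 1139.8 in CT wild types, which overlapped, and its log2 fold change of -0.14 ± 0.15 did not pass. Between mutants, at 1845 and 1427 CPM in CG and 1153 and 1081 in CT, the difference of -0.55 ± 0.15 passed with an edgeR adjusted p of 0.0215. Without CG mutant replicate 1, the higher of these CG libraries, it no longer passed, and the same held for Sec61b, Atf6, Ern1 and Derl2. Fkbp10 (FKBP65), a collagen-folding prolyl isomerase, was singled out after its values were seen because it lay on the other side. It was at 204 and 229 CPM in CG wild types and 274 and 333 in CT wild types, with every CT wild type above both CG wild types. The log2 fold change of 0.49 ± 0.17 did not pass the edgeR test (adjusted p = 0.0568), but DESeq2 gave an adjusted p of 0.018. The authors' deposited table of comparisons lists 2655 genes, where the expression table holds 18501. Fkbp10 is the 1 gene of the 35 listed there, so none of those called lower in CT here is. Between the wild types of the lines Fkbp10 has a log2 ratio of 0.49 there and a q-value of 0.00405. Between the mutants its log2 fold change was -0.03 ± 0.17.

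The 4 genes of the translocon gave mixed values. Sec61a1, the pore of the channel, was lower in CT in both comparisons, at -0.52 ± 0.12 and -0.62 ± 0.12. Sec61b, its small tail-anchored subunit and the most abundant of these genes per length, was at 56.1 and 78.9 CPM in CG wild types, 86.6 and 72.0 in CG mutants, 50.0 and 60.8 in CT wild types, and CT mutants were at 53.0 and 56.4. The groups overlapped in the wild types, and Sec61b passed between mutants, at -0.54 ± 0.18 with an edgeR adjusted p of 0.0452. Sec61g, the third subunit, also singled out after its values were seen, was at 24.2 and 29.9 CPM in CG wild types and 32.0 and 43.6 in CT wild types. Its wild-type difference of 0.48 ± 0.17 pointed the other way and did not pass (edgeR adjusted p = 0.0566), while DESeq2 gave an adjusted p of 0.0378. The translocon-associated Ssr1 did not pass, at 0.06 ± 0.11 and 0.10 ± 0.11.

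Of the 3 genes for export to the Golgi, none passed between wild types and 1 between mutants. Sec24d, the cargo-binding coat subunit, was at 244 and 255 CPM in CG wild types, 198 and 238 in CG mutants, 235 and 213 in CT wild types, and CT mutants were at 217 and 212. The lines overlapped, and neither Sec24d nor its partner Sec23a passed in either comparison. Mia3 (TANGO1), which loads procollagen into the coat, was at 174 and 173 CPM in CG wild types and 232 and 215 in CG mutants. It was at 150.3 and 147 CPM in CT wild types, and CT mutants were at 162 and 152, with all CT libraries lowest. Only the difference between mutants passed, -0.51 ± 0.08 with an edgeR adjusted p of 0.0031, against -0.22 ± 0.08 and 0.0805 between wild types.

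Of the stress sensors and transcription factors, 3 of 4 were lower in CT wild types and 4 of 4 in CT mutants. Creb3l2, the most abundant of them per length, was at 646 and 609 CPM in CG wild types and 749 and 655 in CG mutants. CT wild types stood at 426 and 390.3 CPM and CT mutants at 403 and 441 CPM, and no library of one line reached the range of the other. Log2 fold changes were -0.62 ± 0.11 and -0.73 ± 0.11, with edgeR adjusted p of 0.00485 and 0.00205. Ern1, singled out after its values were seen, was at 139.9 and 207 CPM in the wild types and 220.3 and 134 CPM in the mutants of CG, and at 103 and 59.8 CPM and 83.4 and 53.6 CPM in those of CT. All CT libraries were below all CG libraries, but libraries of the same group differed widely, and the edgeR adjusted p between wild types was 0.0449 for a difference of -1.09 ± 0.35. Xbp1, the factor whose mRNA IRE1 splices, passed in both comparisons, with log2 fold changes of -0.70 between wild types and -0.99 between mutants. The counts are per gene and do not separate the spliced from the unspliced form of Xbp1. Atf6 was at -0.37 ± 0.14, which did not pass, and -0.51 ± 0.14, which did.

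Degradation genes gave 5 of 7 calls in each comparison, all lower in CT. Herpud1 ranged widely, with 747 and 807 CPM in CG wild types and 573 and 579 in CG mutants. It was at 401 and 239.7 CPM in CT wild types, and CT mutants were at 214 and 168. Each CT library lay below each CG library, and the log2 fold changes were -1.28 ± 0.23 and -1.59 ± 0.23, with edgeR adjusted p of 0.00493 and 0.00172.

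Sel1l, the adaptor of the membrane ligase, had the smallest p of the 35 genes between wild types. It was at 226 and 256 CPM in CG wild types and 232 and 220.3 in CG mutants. In CT its levels were 128 and 128 CPM in wild types and 134 and 142 CPM in mutants. Libraries of the same group lay close together and the lines were far apart, at -0.91 ± 0.09 and -0.71 ± 0.09, with edgeR adjusted p of 0.000587 and 0.00121. Syvn1 (HRD1), the ligase that Sel1l holds, was at 162 and 188 CPM in CG wild types, 113 and 161 in CG mutants, 115 and 88.0 in CT wild types, and CT mutants were at 91.4 and 79.6. One CG mutant, replicate 1, fell just below one CT wild type, so the lines overlapped there, and the differences of -0.79 ± 0.19 and -0.68 ± 0.19 passed. The derlins, membrane proteins of the exit channel, gave -0.44, -0.41 and -0.98 for Derl1, Derl2 and Derl3 between wild types, of which Derl3, the least abundant, did not pass. The mannosidase-like Edem1 passed in neither comparison.

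Calls in the wild types leaned on single libraries. Without CG wild type replicate 2, 7 of the 35 genes were lower in CT and the median was -0.42, and without CT wild type replicate 2, 10 were lower. Calls over all genes fell as well, to 7.77% and 9.94% lower, from 16.8%. The 7 were Sel1l, Sdf2l1, Creld2, Calr, Hyou1, Creb3l2 and Herpud1, which passed in the same direction under all 16 alternatives, leaving out each library included. Between mutants 16 genes did so, among them the same 7, and the other 10 calls were each lost under at least 1 alternative. The count between mutants was 21 without CG mutant replicate 1 (13.6% of all genes) and also without replicate 2 (16.2%). It was 19 without CT mutant replicate 1 (10.1%) and 17 without CT mutant replicate 2 (9.82%). Passing under all 16 alternatives was not counted over all tested genes, so the 7 and 16 genes have no share beside them. In the CG wild types replicate 2 was above replicate 1 in 33 of 35 genes, against 50.2% of all tested genes, with a median difference of 0.27 in log2 units against 0.14 for all genes. In the CG mutants replicate 2 was above in 18 of 35 (48.1% of all genes), in CT wild types in 12 (49.9%) and in CT mutants in 14 (50.8%). CG wild type replicate 1 also differed from replicate 2 in Ddx3y, and with a term for a Ddx3y count of at least 1000 in the fit, 22 of the 35 genes were lower between wild types (16.0% of all genes) and 23 between mutants (15.5%).

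Other differences ran along with the line. Erythroid markers (6 of 6 in the table) summed to between 1.75 and 8.74 CPM in CG libraries and between 796 and 2686 in CT libraries, with Hbb-b2 at 0 in all 4 CG libraries. Endothelial markers (5 of 5) summed to 10.9 to 33.2 CPM in CG and 52.5 to 98.1 in CT. Fibroblast and perichondrium markers (6 of 6) summed to 230.7 to 736 and 1402 to 1975, most of it Col1a1 and Col3a1. Col1a1 was at 104 to 312 CPM in CG and 756 to 1249 in CT. Pdgfra and Postn were also higher in CT, while Dpt (0.582 to 2.82 and 1.02 to 2.01) and Thy1 (1.54 to 8.43 and 3.67 to 5.43) overlapped. Markers of plasma and B cells, the former also rich in ER, were 5 of 6 in the table and summed to 0.873 to 1.40 CPM in CG and 2.42 to 9.98 in CT. Macrophage and leukocyte markers (9 of 9) summed to 328 to 553 CPM in CG and 281 to 347 in CT, but most of this was Cd14, at 317 to 527 in CG and 241 to 315 in CT. Ptprc ran the other way, from 0.374 to 1.68 CPM in CG and from 2.55 to 9.98 in CT, as did Tyrobp, from 0.166 to 1.60 and from 2.09 to 6.21. Muscle markers (6 of 6) summed to 6.52 to 26.2 CPM in CG and 4.84 to 7.13 in CT, with Acta1 as the largest part. Myog was at 1.21 to 7.29 CPM in CG and 0.212 to 0.508 in CT. Tnnt3 ran the other way, at 0.249 to 0.534 and 0.643 to 2.33, and Ckm overlapped, at 0 to 0.267 and 0.131 to 0.406. Osteoblast markers (5 of 5) summed to 10.1 to 26.5 CPM in CG and 16.6 to 22.1 in CT. The part of these cells in the lower ER genes of CT was not tested.

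Lower levels in CT were found both with and without the promoter elements shown above. Of 9 genes with an ERSE, 6 were lower in CT wild types and 8 in CT mutants, with medians of -0.79 and -0.91. With ERSE-II, added after the data were seen, the counts were 8 and 10 of 11, with the same medians. Of the 18 genes with a window and neither element, 9 and 12 were lower, with medians of -0.37 and -0.54, and Sdf2l1, the gene with the lowest value, was one of these. Among 12 other tested genes with an ERSE, 4 were lower and 2 higher in CT wild types, and 2 were lower and 1 higher in CT mutants. Over all tested genes 16.8% were lower and 17.0% higher between wild types, and 18.2% and 17.9% between mutants.

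Further genes of the same pathways, taken from lists outside the 35, gave calls in both directions, except in the chaperone list. All calls of that list were lower in CT, and 3 of its 20 values lay above 0 in each comparison. Of all tested genes, 50.2% lay above 0 between wild types and 49.2% between mutants. Of 12 other isomerases and oxidases, 2 were lower and 1 higher in CT wild types, led by Qsox1, a sulfhydryl oxidase, at -1.95 ± 0.11 and the peroxiredoxin gene Prdx4 at 0.86 ± 0.16. Of 20 tested genes for other chaperones and glycoprotein folding, 2 passed, both lower, the glucosyltransferases Uggt1 at -0.74 ± 0.09 and Uggt2 at -0.29 ± 0.09. Of 21 further translocon and signal peptide genes, 3 were higher and 4 lower, with Tram2 at 0.99 ± 0.15 and Srp54a at -0.66 ± 0.11. Of 26 further COPII and export genes, 4 were higher and 7 lower, with the KDEL receptor Kdelr3 at 0.78 ± 0.10 and the transcription factor Creb3l1 at -0.84 ± 0.11. Of 18 further degradation genes, 2 were higher and 3 lower, with the lectin gene Os9 at -0.83 ± 0.10 and the conjugating enzyme gene Ube2j2 at 0.37 ± 0.08. The medians of these lists lay between -0.15 and 0.14, near the 0.00 of all genes, and each gene named here passed the edgeR test. Between mutants, 1 isomerase or oxidase gene was higher and 1 lower, and of the chaperone and glycoprotein genes 6 passed, all lower. There 4 translocon genes were higher and 6 lower, 3 export genes higher and 9 lower, and 4 degradation genes higher and 4 lower. Medians ran from -0.27 (chaperones) to 0.07 (degradation). Shares lower and higher over all tested genes were 16.8% and 17.0% between wild types, and 18.2% and 17.9% between mutants.

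The other sensors and stress factors and the targets of the integrated stress response, which PERK feeds through Atf4, were more often lower than higher in CT. Among all tested genes, 16.8% were lower and 17.0% higher between wild types, and 18.2% and 17.9% between mutants. Of 12 tested sensors and factors, 7 were lower in CT wild types and 1 higher, with a median of -0.37, led by Atf4 at -0.80 ± 0.11 and Wfs1 at -0.77 ± 0.15. Between mutants 6 were lower and 1 higher, again with a median of -0.37. Of 14 targets, 12 were lower in CT wild types and 13 in CT mutants, with medians of -0.97 and -1.36. The smallest p-values between wild types were those of the pseudokinase gene Trib3, -2.21 ± 0.17, and of Atf5, -1.21 ± 0.12.

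Genes for the secreted cargo were more often higher than lower in CT. All tested genes were 17.0% higher and 16.8% lower between wild types, and 17.9% and 18.2% between mutants, by count. Of 16 genes for secreted cartilage proteins, 8 were higher and 2 lower in CT wild types, with a median of 0.70, led by Comp at 2.21 ± 0.13 and Col9a1 at 2.40 ± 0.23. Between mutants 6 were higher and 3 lower, with a median of 0.43. Of 18 genes for collagen modification and folding, 7 passed between wild types, all higher in CT, with the prolyl 4-hydroxylase genes P4ha1 at 0.86 ± 0.09 and P4ha3 at 2.35 ± 0.28. Between mutants 4 of them were higher and 4 lower. The plot of the line difference by gene group sets the 35 genes beside these lists.

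**Figure D4:**
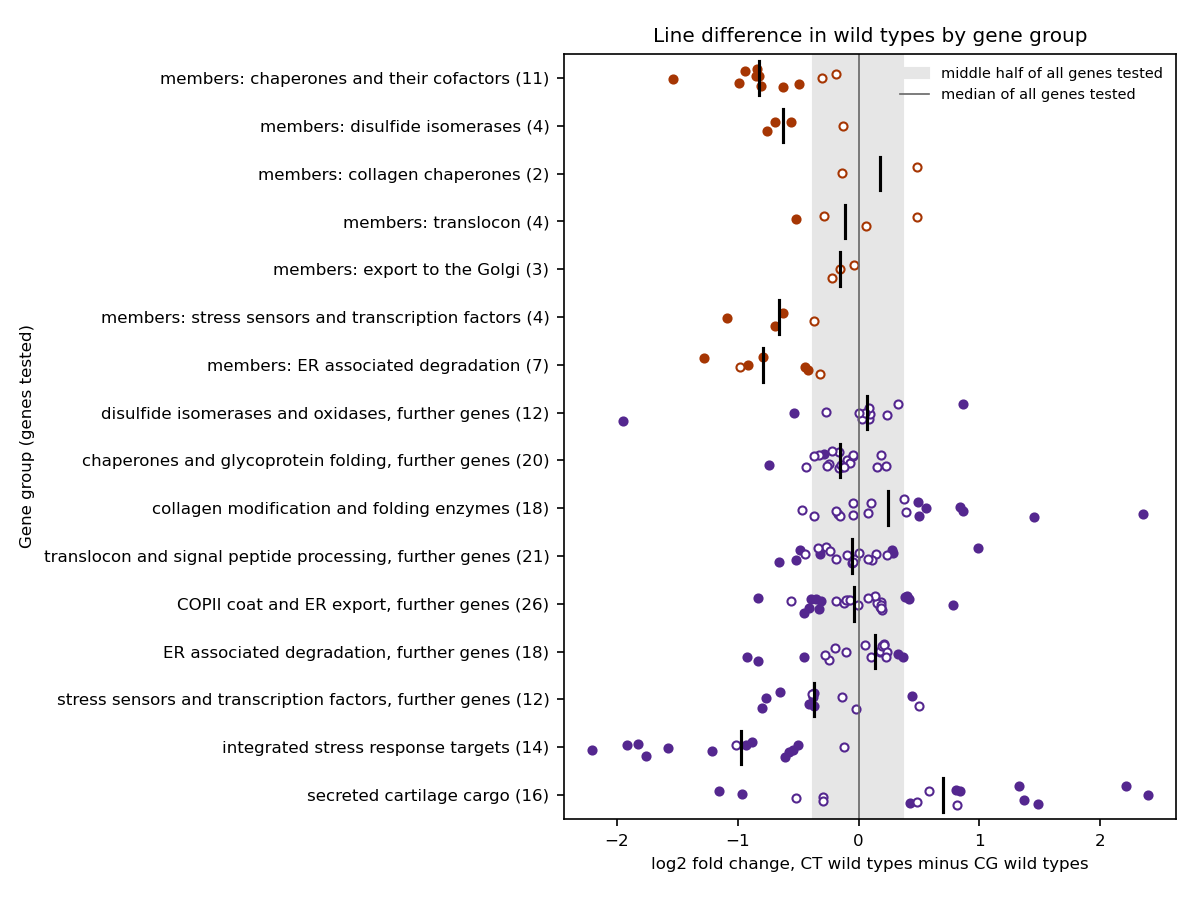
Log2 fold change, CT minus CG wild types, of each tested gene (points) in the 7 role groups of the 35 genes (upper rows) and in 9 further lists (lower rows); filled points passed the edgeR test, black bars are the medians and the grey band holds the central portion of all tested genes, between their quartiles. Chaperones lie left of 0 with a median of -0.83 and secreted cargo mostly right of it with a median of 0.70.

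In the CG line, mutants of the 3p seed were set against their own wild types, libraries that also enter the line differences above. None of the 35 genes passed the edgeR test, as for nearly all genes (0.00696% of those tested passed). The values of 28 of 35 genes lay above 0, against 50.6% of all genes, and the median was 0.16 in log2 units, against 0.00. Both CG mutants held Ddx3y and CG wild type replicate 1 held nearly none, so sex was not balanced here. With the Ddx3y term in the fit the median of the 35 genes was 0.094. With no adjustment, 7 genes were higher and 0 lower at a p under 0.05, where 6.50% of all genes were higher and 4.87% lower, and DESeq2 and limma on FPKM called none of the 35. Both CG mutants lay above both wild types in 11 of 35 genes, against 23.2% of all genes, and below in 3, against 22.5%.

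The smallest p-values belonged to Mia3, Pdia6, Pdia4 and Calr. Mia3, at 232 and 215 CPM in mutants and 174 and 173 in wild types, had wild types close together and a log2 fold change of 0.37 ± 0.08 (edgeR adjusted p = 0.24). Pdia6 was at 464 and 404 CPM in mutants and 256 and 349 in wild types, and Pdia4 at 216 and 249.7 CPM in mutants and 142 and 184 in wild types. In both genes each mutant was above each wild type, but the wild types themselves were far apart, and the log2 fold changes of 0.52 ± 0.15 and 0.52 ± 0.15 had edgeR adjusted p of 0.287 and 0.289. Calr gave 0.34 ± 0.12 (edgeR adjusted p = 0.362). Without CG wild type replicate 1 or 2, Mia3 stayed at 0.37 and 0.37. The others moved with the wild type left out, Pdia6 to 0.31 and 0.77, Pdia4 to 0.34 and 0.72, and Calr to 0.19 and 0.50. The median of the 35 genes was 0.04 without CG wild type replicate 1 and 0.33 without replicate 2. With the Ddx3y term Mia3 was at 0.35, Pdia6 at 0.44, Pdia4 at 0.51 and Calr at 0.29.

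By role, all 4 isomerases, both collagen chaperones and all 4 translocon genes had values above 0, and 5 of 7 degradation genes had values below 0. Herpud1 was at 573 and 579 CPM in CG mutants and 747 and 807 in wild types, both mutants below both wild types, with a log2 fold change of -0.43 ± 0.22 that did not pass (edgeR adjusted p = 0.51). Syvn1 and Sec24d were the other 2 genes with both mutants below. CG mutant replicate 1 stood apart in the second principal component, and it had the highest Fkbp10 and Serpinh1 of all libraries in CPM. In FPKM its Fkbp10, at 120, was below 141 in CT wild type replicate 2 and 128 in CT mutant replicate 2. In CG mutant replicate 1 fibroblast and perichondrium markers summed to 230.7 CPM, against 662 to 736 in the other CG libraries, with Postn at 27.0 against 109.8 to 119. Endothelial markers summed to 10.9 CPM against 24.2 to 33.2, and Col2a1 was at 41094 CPM against 24140 to 25753. The part of these cells in the CG mutant values was not tested. Without CG mutant replicate 2, so with replicate 1 as the single mutant, 229 genes were called higher and 293 lower, and Fkbp10 passed among the 35 at 0.67 with an edgeR adjusted p of 0.0474. Without replicate 1 none of the 35 passed.

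**Figure D5:**
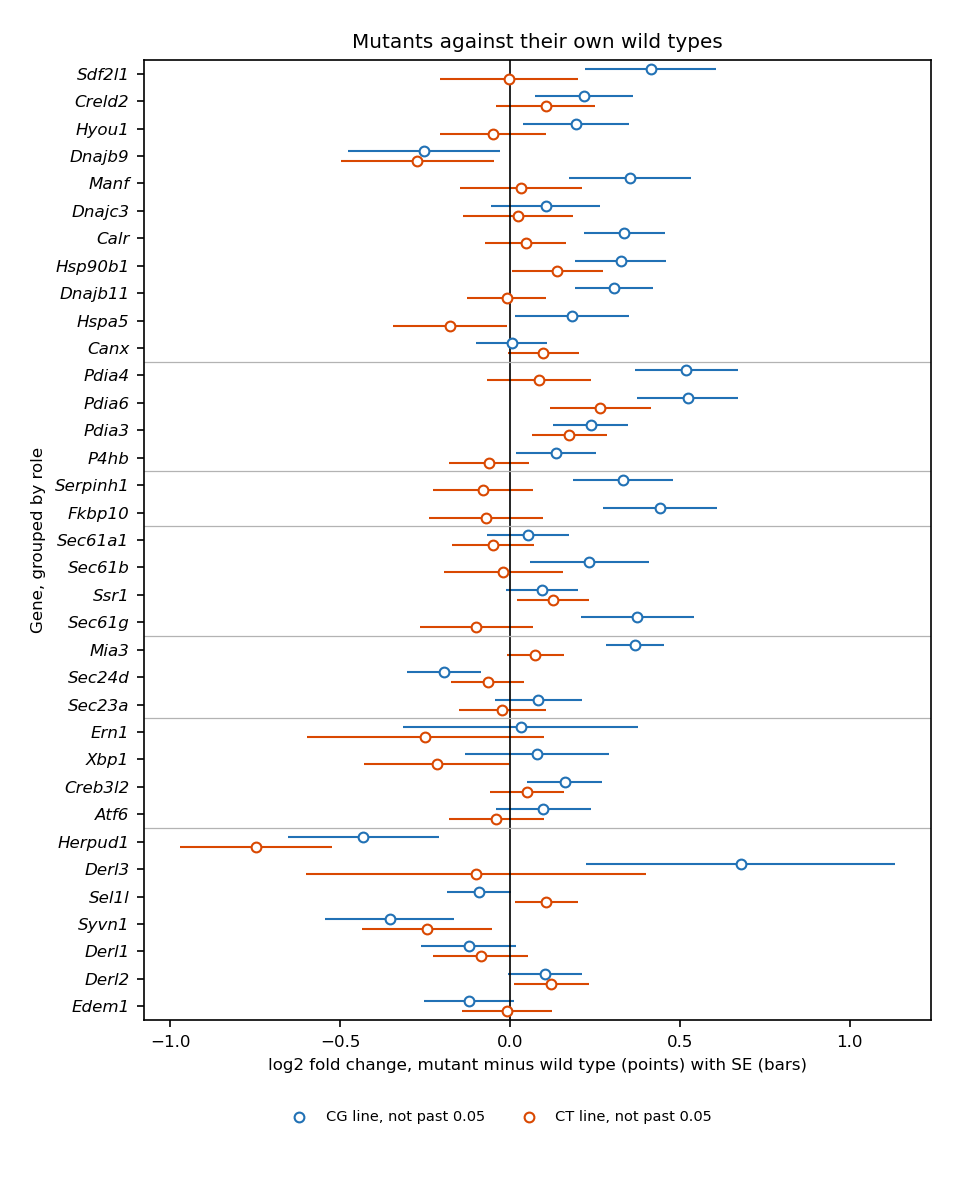
Log2 fold change of each gene, mutant minus wild type of the same line, in the CG line (blue) and the CT line (orange), with the standard error as bars; open points did not pass the edgeR test. All 70 points are open, 28 of the 35 blue points lie right of 0 and 14 of the 35 orange points do.

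CT mutants were compared with their wild types in the same way. Again none of the 35 genes passed the edgeR test, where 0.00696% of all genes did, and DESeq2 and limma on FPKM called none of them. Values above 0 were found for 14 of 35 genes, against 49.4% of all genes, with a median of -0.02 where all genes had 0.00. Before adjustment 0 genes were higher and 1 was lower at a p under 0.05, against 2.45% and 2.66% of all genes. Both mutants lay above both wild types in 9 genes (17.2% of all genes) and below in 1 (16.3%).

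That 1 gene was Herpud1. It was at 214 and 168 CPM in CT mutants and 401 and 239.7 in CT wild types, so that both mutants were lower, but one wild type was far above the other. The log2 fold change of -0.75 ± 0.22 had an edgeR adjusted p of 0.958 and was -0.33 without CT wild type replicate 1. Pdia6 was at 233 and 218 CPM in mutants and 187 and 188 in wild types, and Pdia3 at 408 and 427 CPM in mutants and 365 and 374 in wild types, both genes without overlap. Their log2 fold changes of 0.27 ± 0.15 and 0.18 ± 0.11 did not pass. Syvn1, at -0.25 ± 0.19, had overlapping groups. The other genes lay between -0.27 (Dnajb9) and 0.14 (Hsp90b1).

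Over both lines, the mean of the mutant effects passed for none of the 35 genes in the edgeR test, as for 0.00% of all genes. Unadjusted, 5 were higher and 1 lower at a p under 0.05, where 6.06% and 5.40% of all genes were. Pdia6 at 0.39 ± 0.10 and Herpud1 at -0.59 ± 0.16 had the smallest p-values, with edgeR adjusted p of 0.273 and 0.274. DESeq2 called these 2 genes and no other of the 35, with adjusted p of 0.0355 and 0.00767. Over all genes DESeq2 also called more than edgeR here, 106 higher and 95 lower. Herpud1 was lower and Pdia6 higher in both mutants than in both wild types of each line.

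Whether the mutant effect differed between the lines was tested as an interaction, the CG effect minus the CT effect. None of the 35 genes passed the edgeR test (0.0209% of all genes did), and DESeq2 and limma on FPKM called none. Unadjusted, 1 gene was higher at a p under 0.05 and 0 lower, against 2.64% and 2.14% of all genes. That gene was Mia3, at 0.29 ± 0.12. This contrast is also the difference between the line differences of wild types and mutants, so genes that passed between the mutants and not between the wild types, such as Hspa5, Serpinh1, Sec61b, Atf6 and Derl3, are not shown to differ between the 2 comparisons. The further lists had no gene past the threshold in the mutant effect of either line. In the CT line all 14 integrated stress response targets had values below 0, with a median of -0.51, and 7 were lower at an unadjusted p under 0.05, where 49.4% of all genes lay above 0 and 2.66% were lower at that p. In the CG line 4 of the 14 lay above 0, with a median of -0.11, and 1 was higher and 1 lower at an unadjusted p under 0.05. In the interaction 3 of the 14 were higher and 0 lower at that p, and none passed the edgeR test.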

How the data were processed

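RNA-seq of 8 libraries was used. Per the file headers, the authors' main table holds for each library the estimated count and the FPKM of each gene. HISAT2 2.0.4 and mm9 come from the submitters' processing notes. The read counter and the gene models were not given in the sources used here. As deposited by the authors, estimated counts had no normalization, and between 2282 and 2518 genes of a library had a count that was not whole, which was rounded. Near-identical genes can share such counts. A table of the authors' comparisons was deposited with log2 ratios and q-values. A further table repeats 3 libraries and was not used. Symbols of 24 genes turned into dates were restored from Entrez IDs.

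In R 4.3.3, edgeR 4.0.16 (quasi-likelihood F test, TMM, its default filter) fitted 4 group means to all 8 libraries, with 4 residual degrees of freedom and Benjamini-Hochberg adjustment over 14359 genes at 0.05. Standard errors are the absolute log2 fold change over the square root of F. DESeq2 1.42.0 and limma 3.58.1 on log2(FPKM + 1) and log2(FPKM + 0.1) were alternatives. The fits were tested on simulated data. The members and lists were chosen with earlier results of these data known. Values in every library are given for up to 10 genes with the smallest p among those passing in each comparison, the 4 smallest p in each mutant effect and the gene of highest FPKM in each role. Of each further list the 2 smallest p are named. ERSE-II, the counts between libraries of a group, and the count of separated genes without CG mutant replicate 1 were added after the data were seen. Replicate numbers are shared by all groups, and deviations of same-numbered libraries correlated at -0.089 to 0.25, so numbers were not taken to pair libraries. Promoters came from the RefSeq table. Protein sequences were not analysed here.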

Additional observations from a re-analysis of the deposited data

How the results depend on the processing

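With DESeq2 the CG mutant effect called 112 genes higher and 93 lower, against 0 and 1 by edgeR, the CT mutant effect 10 and 8 against 1 and 0, the mean effect 106 and 95 against 0 and 0, and the interaction 17 and 21 against 1 and 2. Of the 35 genes, DESeq2 called 1 higher and 1 lower in the mean effect and 2 higher between wild types, Fkbp10 and Sec61g, and it lost Ern1 there. With no filter on low counts the CG effect called 5 higher and 8 lower, the CT effect 2 higher, the mean effect 1 higher and the interaction 2 higher. On log2(FPKM + 1) the CG effect called 2 higher and 2 lower and the CT effect 2 lower, and on log2(FPKM + 0.1) the CG effect called 2 higher and the interaction 0 higher. With the Ddx3y term the CG effect called 2 lower and the mean effect 1 lower, and the median of the 35 genes in the interaction was 0.081 against 0.20. In fits of the compared groups alone the CT effect called 2 lower, and 1 of the 35 genes, Fkbp10, was higher in CT wild types. The cause was not tested.

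On FPKM values, between wild types 1567 genes were lower with a pseudocount of 1 and 1592 with 0.1, with 2 of the 35 higher under both and medians of -0.43 and -0.43. Between mutants 4040 genes were higher and 1504 lower with 1, and 4088 and 1528 with 0.1, with 1 of the 35 higher, Ssr1, and medians of -0.45 and -0.45. Signs turned in genes near 0 that had not passed. Sec23a was at 0.074 and 0.077 between wild types with the pseudocounts in this order. Between mutants Sec23a was at 0.070 and 0.073, Canx at 0.12 and 0.12, Fkbp10 at 0.21 and 0.21, Sec24d at 0.19 and 0.20, and Edem1 at 0.014 and 0.017. With the Ddx3y term Sec24d was at 0.015 and Sec61g at -0.025 between mutants. Over all alternatives, single calls of the 35 genes between wild types stayed as they were in 501 cases, were lost in 42, gained in 13 and turned in 4, and between mutants in 488, 47, 8 and 17.

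Leaving out each library in turn, genes called in the CG effect ran from 0 to 229 higher and 1 to 293 lower, those of the 35 called higher from 0 to 1, and their median from 0.040 to 0.33. In the CT effect 0 to 4 genes were higher and 0 to 2 lower, with a median of the 35 from -0.033 to 0.054. The mean effect gave 0 to 129 higher and 0 to 190 lower, with a median from 0.019 to 0.16, and the interaction 0 to 28 and 1 to 69, with a median from 0.054 to 0.33. Between wild types 995 to 2711 genes were higher in CT and 1142 to 2615 lower, and of the 35, 0 to 1 were higher and 7 to 22 lower, with a median from -0.67 to -0.42. Between mutants 1449 to 2565 were higher and 1445 to 2645 lower, and 17 to 27 of the 35 were lower, with a median from -0.69 to -0.66. The largest counts in the mutant effects and the interaction came without CG mutant replicate 2, except the 4 higher and 2 lower genes of the CT effect. Signs turned for Ssr1 between wild types, from -0.062 without CG wild type replicate 1 to 0.20, and for Sec23a, whose values ran from -0.20 to 0.11, the latter without CT wild type replicate 2. Between mutants Fkbp10 ran from -0.26 to 0.24, with 0.24 without CG mutant replicate 1 and 0.011 without CT mutant replicate 1. Sec61g ran to 0.10 but was at -0.088 without CG mutant replicate 2 and -0.019 without CT mutant replicate 2, and Sec24d ran from -0.15 to 0.10, the latter without CG mutant replicate 2. A group left with 1 library is assumed to vary like the others.

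With a replicate block the CG effect called 1 gene higher and 2 lower. Of the 35 genes, 20 were lower between wild types, where Derl1 was lost (edgeR adjusted p = 0.0623), and 26 between mutants, and the block changed no other call of the 35. Same-numbered libraries correlated at 0.25 in the CT line and at -0.089 to 0.019 in the other pairs of groups. In the CT line they also matched in Ddx3y, at 3669 and 3512 counts in replicate 1 and 10 and 30 in replicate 2. What a replicate number marks is not stated, and no pairing was assumed. With 2 libraries a group and 4 residual degrees of freedom, small differences in the mutant effects cannot be shown, and gene totals say nothing of splicing, protein or secretion.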
